A study of Homo sapiens with 12 samples.

Results

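ULK2 and the other genes of the autophagy initiation kinase complex, ULK1, ULK3, ATG13, ATG101 and RB1CC1, were followed through RNA-seq of nucleolar (NO) and cytoplasmic-nuclear (CN) RNA, in wild-type cells (HEK WT) and in cells edited to lack hnRNP UL1 (HEK UL1 KO). The genes were taken by their symbols from both count tables, which gave 6 of 61163 genes, and all 6 passed the filter on low counts in each fraction. ULK2 was chosen by its measured counts, which in earlier work on these data were higher in HEK UL1 KO and extreme in 1 NO library, so its differences between the genotypes are given as a description, without a test. HEK293T is an established line of human embryonic kidney cells, and the sample titles name it for all 4 groups. HEK UL1 KO is a HEK293T line edited with CRISPR-Cas9 guides against HNRNPUL1, the gene of the RNA-binding protein hnRNP UL1. HEK WT is the wild-type control, which the text of the study abbreviates as wild-type HEK293. Whether HEK UL1 KO was made from the HEK WT cells sequenced here is therefore not settled by these sources. The groups received no other treatment that the labels name. The study used 1 knockout line, so an effect of the gene and a property of that line cannot be told apart, and whether the line is 1 clone is not given in the sources used here. Each genotype and fraction had 3 labelled replicates, 12 libraries in all.

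Autophagy encloses parts of the cytoplasm in a double membrane and delivers them to the lysosome. It starts when a complex of a ULK kinase (ULK1 or ULK2), the regulatory subunit ATG13, its stabilizing partner ATG101 and the scaffold RB1CC1 (also called FIP200) is released from inhibition by mTORC1 or activated by AMPK. The complex then recruits ATG9 vesicles and the class III PI3 kinase, which marks the forming membrane for the ATG8 conjugation system. ULK3 is a related kinase known mainly for its part in Hedgehog signalling.

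The libraries held 37141666 to 104040073 counts. They were not depleted of rRNA, which took 55.3 to 65.1% of the counts in NO and 73.9 to 78.7% in CN, so ATG101, the lowest of the 6 genes, rested on 20 to 67 counts per library. Levels are given in CPM, the counts of a gene relative to the counts of its library, with each fraction scaled on its own by the TMM method. Within HEK WT, replicate 3 stood apart in NO, with a TMM factor of 1.40 against 0.690 and 0.622 in replicates 1 and 2. The HEK UL1 KO libraries of NO had factors of 1.34, 1.09 and 1.15, nearer to that of replicate 3. Results that rest on replicate 3 of HEK WT are given with and without it. Without it, the genotypes in NO also differ in this factor throughout, and the part of that difference was not tested. HNRNPUL1 itself was lower in every HEK UL1 KO library, by a factor of 3.99 in NO and 3.55 in CN. Of 8 markers used for HEK293T cells, 4 had at least 50 counts in every library, and the sum over all 8 was lower in HEK UL1 KO, at 30.4 to 38.6 against 39.1 to 70.2 CPM in NO and at 39.7 to 44.6 against 59.4 to 67.9 CPM in CN. Its members did not move together. In CN, INA had 189 to 256 counts in HEK WT and 7 to 9 in HEK UL1 KO, whereas KRT8 had 37 to 49 and 167 to 187 counts. The 4 nucleolar RNAs SNORD3A, SNORD3C, SNORD13 and RMRP summed to 18429 to 24299 CPM in NO of HEK WT, 9665 to 14370 CPM in NO of HEK UL1 KO and 429 to 687 CPM in CN. The part of these differences in the results was not tested.

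ULK2 (ENSG00000083290) lies on the minus strand of chromosome 17, from 19770830 to 19867936 in GRCh38, with 27 exons in its canonical transcript. ULK1 (ENSG00000177169) is read from the plus strand of chromosome 12, at 131894622 to 131923150, and has 28 exons. The 250 bases before the start of each gene are shown because ULK2 and ULK1 are the alternative kinases of the complex, and their levels are set side by side below. They were taken from RefSeq (GRCh38.p14), at chr17:19867937-19868186 on the minus strand for ULK2 and chr12:131894372-131894621 on the plus strand for ULK1. They read 5′ to 3′, and capitals mark the GC box GGGCGG or its reverse complement CCGCCC.
ULK2: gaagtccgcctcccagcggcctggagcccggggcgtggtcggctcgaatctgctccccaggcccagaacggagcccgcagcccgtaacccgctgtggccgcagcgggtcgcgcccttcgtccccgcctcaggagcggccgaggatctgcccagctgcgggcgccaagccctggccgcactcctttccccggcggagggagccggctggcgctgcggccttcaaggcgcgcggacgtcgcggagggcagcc
ULK1: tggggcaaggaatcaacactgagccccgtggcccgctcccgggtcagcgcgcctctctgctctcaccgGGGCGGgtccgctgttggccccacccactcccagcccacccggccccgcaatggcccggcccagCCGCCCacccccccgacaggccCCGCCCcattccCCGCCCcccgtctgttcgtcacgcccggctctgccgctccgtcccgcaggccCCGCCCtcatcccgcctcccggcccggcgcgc
Both stretches were rich in G and C, at 76.0% for ULK2 and 78.0% for ULK1. Searched on both strands, GGGCGG occurred 5 times before ULK1 and not before ULK2, and it was present in 42.3% of 27305 promoters of the same length. The E-box CACGTG (6.49% of promoters), TATAAA (11.1%) and CCAAT (33.0%) were in neither window. Of the other 4 members, ULK3, ATG13 and ATG101 had an entry in the promoter table, with 3, 0 and 2 GC boxes, and RB1CC1 had none.

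ULK2 was higher in HEK UL1 KO than in HEK WT in both fractions, and 1 NO library exceeded all others by 2 orders of magnitude. In NO, ULK2 had 127, 128 and 173 counts in replicates 1, 2 and 3 of HEK WT and 124817, 195 and 217 counts in replicates 1, 2 and 3 of HEK UL1 KO. These were 3.26, 3.95 and 2.91 CPM in HEK WT and 1125, 4.58 and 5.08 CPM in HEK UL1 KO. The 3 HEK UL1 KO libraries were all above the 3 HEK WT libraries, and replicate 1 of HEK UL1 KO was 221 times the highest other NO library. Its count there was 575 times that of the next HEK UL1 KO library. The fitted log2 fold change (log2FC) in NO was 6.81 with all libraries and 0.52 without that library, where the means were 4.83 ± 0.354 CPM (SD, n = 2) and 3.37 ± 0.530 CPM (SD, n = 3), a ratio of 1.43.

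In CN, no library stood out. ULK2 had 342, 310 and 271 counts in replicates 1, 2 and 3 of HEK WT (4.06, 3.71 and 3.42 CPM) and 410, 421 and 290 counts in HEK UL1 KO (5.60, 5.60 and 4.89 CPM). Again every HEK UL1 KO library was above every HEK WT library, by less than in the extreme NO library and by about as much as in the other NO libraries. The means were 5.37 ± 0.411 against 3.73 ± 0.318 CPM (SD, n = 3 each), a ratio of 1.44 and a fitted log2FC of 0.53. The difference of the effects between NO and CN was 6.49 on the log2 scale with all libraries and 0.11 without the extreme library. The genes that overlap ULK2 in the annotation, NDUFB4P3 and TRG-CCC3-1, had 0 to 3 counts in every library.

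**Figure D1:**
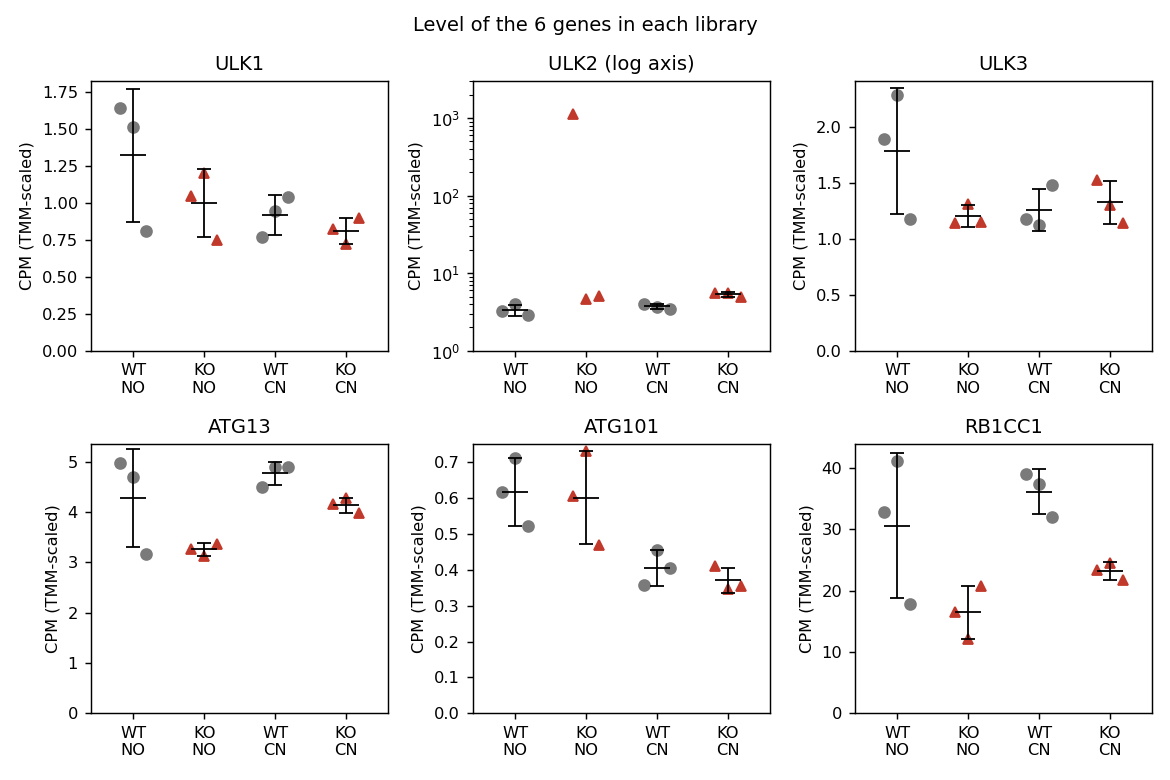
Level in CPM of the 6 genes in each of the 12 libraries, with the mean and SD of each group of 3 as bars (no mean is drawn for ULK2 in NO of HEK UL1 KO, and the ULK2 axis is logarithmic). NO and CN were scaled separately. ULK2 stands at 1125 CPM in 1 library and between 2.91 and 5.60 CPM in the other 11, and RB1CC1 lies lower in all 3 HEK UL1 KO libraries of CN.

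The other 2 kinases did not pass the test between the genotypes in either fraction. ULK1 had 64, 49 and 48 counts in NO of HEK WT (1.64, 1.51 and 0.809 CPM) and 116, 51 and 32 counts in HEK UL1 KO (1.05, 1.20 and 0.750 CPM). The groups overlapped, and the log2FC was -0.38 (standard error, SE, 0.334, adjusted p = 0.575, here and below from edgeR's quasi-likelihood test with Benjamini-Hochberg adjustment over all genes tested). In CN, ULK1 was at 0.771, 0.944 and 1.04 CPM in HEK WT and at 0.820, 0.719 and 0.894 CPM in HEK UL1 KO, again overlapping, with a log2FC of -0.18 (SE 0.188, adjusted p = 0.469, edgeR). The 95% interval of this difference ran from -0.55 to 0.19. ULK3 (chromosome 15, 74836118 to 74843156) was at 1.90, 2.29 and 1.18 CPM in NO of HEK WT and at 1.14, 1.32 and 1.15 CPM in HEK UL1 KO. The lowest HEK WT value was that of replicate 3, and the groups overlapped through it. The log2FC was -0.56 (SE 0.306, adjusted p = 0.376, edgeR) with that library and -0.82 (adjusted p = 0.0217, edgeR) without it. In CN, the ULK3 values of 1.17, 1.12 and 1.48 CPM in HEK WT and 1.53, 1.30 and 1.15 CPM in HEK UL1 KO overlapped, with a log2FC of 0.08 (SE 0.172, adjusted p = 0.730, edgeR).

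Among the non-kinase subunits, RB1CC1, the scaffold of the complex, fell in CN of HEK UL1 KO. RB1CC1 (chromosome 8, 52622458 to 52714435) was at 39.0, 37.3 and 31.9 CPM in CN of HEK WT and at 23.4, 24.5 and 21.6 CPM in HEK UL1 KO. The groups did not overlap, and the means of 36.1 ± 3.72 and 23.2 ± 1.42 CPM (SD, n = 3 each) gave a log2FC of -0.64 (SE 0.0899, adjusted p = 0.000317, edgeR). With total counts in place of TMM, the fold change was -0.45 (adjusted p = 0.0872, edgeR), and with all 12 libraries in one fit it was -0.72 (adjusted p = 0.0808). In NO, RB1CC1 was at 32.8, 41.1 and 17.8 CPM in HEK WT and at 16.6, 12.1 and 20.7 CPM in HEK UL1 KO. Replicate 3 of HEK WT lay among the HEK UL1 KO values, and the log2FC was -0.89 (SE 0.349, adjusted p = 0.222, edgeR) with it and -1.18 (adjusted p = 0.00856, edgeR) without it. In RNA from a fraction of many cells, less RNA per cell and fewer cells that express a gene cannot be told apart.

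ATG13, the regulatory subunit that binds the ULK kinases (chromosome 11, 46617553 to 46674518), was at 4.50, 4.90 and 4.90 CPM in CN of HEK WT and at 4.15, 4.27 and 3.98 CPM in HEK UL1 KO. The groups did not overlap, but the log2FC of -0.20 (SE 0.0883) missed the threshold, with an adjusted p of 0.0921 in edgeR. In NO, ATG13 was at 4.97, 4.70 and 3.17 CPM in HEK WT and at 3.27, 3.13 and 3.37 CPM in HEK UL1 KO, and its log2FC was -0.39 (SE 0.270, adjusted p = 0.481, edgeR). Replicate 3 of HEK WT was again the lowest of its group, and without it the log2FC was -0.59 (adjusted p = 0.0535, edgeR). ATG101, which stabilizes ATG13 (chromosome 12, 52065300 to 52077495), had the fewest counts of the 6 genes. Its log2FC was -0.02 (SE 0.347) in NO and -0.13 (SE 0.250) in CN, with adjusted p of 0.981 and 0.711 in edgeR. Its values ran from 0.522 to 0.711 CPM in HEK WT and from 0.468 to 0.728 CPM in HEK UL1 KO in NO, and from 0.356 to 0.454 and from 0.346 to 0.410 CPM in CN.

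Of the 5 members other than ULK2, 0 passed the test in NO, where 0.939% of all 34836 genes tested did, and 1 (RB1CC1) passed in CN, where 37.9% of 27234 genes did. At an unadjusted p under 0.05, 1 of the 5 passed in NO and 2 in CN, and DESeq2 called 0 and 1. In CN, the CPM of 2 of these 5 genes (ATG13 and RB1CC1) did not overlap between the genotypes, beside 52.8% of all genes tested (24.7% higher and 28.1% lower). In NO it was 0 of the 5, beside 20.1% (11% higher and 9.17% lower). For ULK1, ULK3, ATG13 and RB1CC1, replicates 1 and 2 of HEK WT lay above every HEK UL1 KO library of NO. Their overlap came through replicate 3 of HEK WT, and the share of all genes without that library was not computed. ULK2 did not overlap in either fraction. It was chosen for its higher counts in HEK UL1 KO, so it was left out of these counts. The difference of the effects between the fractions was tested as an interaction in edgeR for the 5 other members, and 0 passed, beside 0.114% of 37806 genes tested (0.0846% higher and 0.0291% lower), with 0 at an unadjusted p under 0.05 and 0 by DESeq2. Their differences ran from -0.48 (ULK3) to 0.25 (ATG101) on the log2 scale.

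**Figure D2:**
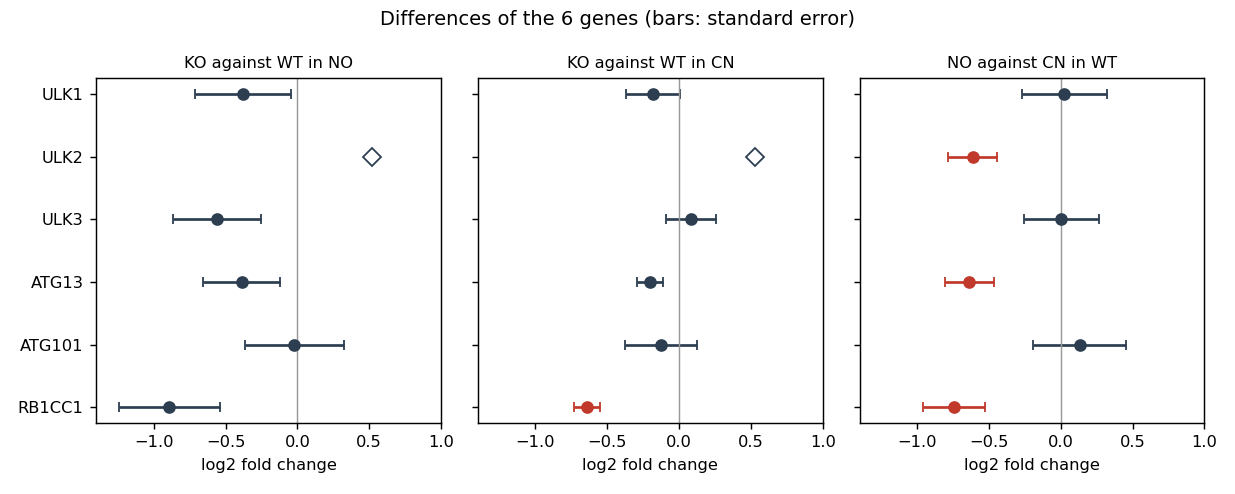
Log2 fold change of each gene in 3 comparisons, with bars for the standard error and red points for an adjusted p under 0.05 from edgeR's quasi-likelihood test. Open diamonds show ULK2, which was not tested between the genotypes and is drawn in NO without replicate 1 of HEK UL1 KO. RB1CC1 fell in CN, and ULK2, ATG13 and RB1CC1 were lower in NO than in CN of HEK WT. With total counts, these differences kept their direction but missed the threshold. The HEK WT values of ULK2 were part of its choice.

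The members differed widely in level. Per kilobase of exon in CN of HEK WT, RB1CC1 was highest at 4.74 ± 0.488 CPM per kb (SD, n = 3) and ATG13 followed at 0.681 ± 0.0333. ULK2 at 0.378 ± 0.0322 and ULK3 at 0.358 ± 0.0546 came next, and these 2 overlapped. ATG101 at 0.127 ± 0.0154 and ULK1 at 0.120 ± 0.0176 were lowest and also overlapped. On these exon lengths, ULK2 RNA was above that of ULK1 in each of the HEK WT libraries of CN, with a lowest value of 0.347 against a highest of 0.136 CPM per kb. The exon lengths came from GENCODE, and the annotation used for the counting is not given. The order of the members therefore holds for these lengths only. In CN of HEK UL1 KO, ULK2 was at 0.544 ± 0.0417 and ULK1 at 0.106 ± 0.0115 CPM per kb, and the scaffold RB1CC1 was still highest at 3.04 ± 0.187.

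The distribution of the members between the fractions was tested in HEK WT, on a scale common to the NO and CN libraries of that genotype. This comparison was not itself used to choose ULK2. The HEK WT values it compares were part of that choice, however, so the result for ULK2 is not independent of it. ULK2 was lower in NO than in CN, with a log2FC of -0.61 (SE 0.168, adjusted p = 0.0131, edgeR). ATG13, at -0.64 (SE 0.172, adjusted p = 0.0123, edgeR), and RB1CC1, at -0.74 (SE 0.218, adjusted p = 0.0176, edgeR), were lower by similar amounts. ULK1, ULK3 and ATG101 had log2FC of 0.03, 0.00404 and 0.13 and did not pass (adjusted p of 0.950, 0.990 and 0.751, edgeR). Of the 5 members other than ULK2, 2 passed, and with ULK2 it was 3 of 6, beside 52.8% of 29340 genes tested. The calls depended on the scaling: with total counts, the values were -0.27 for ULK2, -0.31 for ATG13 and -0.49 for RB1CC1, and none of the 3 passed (adjusted p of 0.595, 0.427 and 0.137). ULK2 also missed the threshold without replicate 1 of HEK WT in CN (adjusted p = 0.0589, edgeR), with at least 10 counts in every library (0.0788), with all 12 libraries in one fit (0.509) and with the replicate block (0.0616). RB1CC1 missed it without replicate 1 of HEK WT in CN (adjusted p = 0.0572, edgeR), and ATG13 missed it with the replicate block (0.0549).

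The wider pathway was described with 94 genes in 8 lists, from the kinases that control the ULK complex to the lysosome. In CN of HEK UL1 KO, 13 of the 92 genes tested rose and 27 fell, beside 15.6% and 22.3% of all genes tested. The median log2FC was -0.11, against 0.04 over all genes. This split depended on the scaling. With total counts, which moved the median of all genes to 0.24, 14 genes rose and 8 fell. The calls over all genes also turned to more rises than falls in that setting. In NO, 0 of the 93 genes tested rose and 1 fell, beside 0.365% and 0.574% of all genes, with a median of -0.31 against 0.00403, while 15 passed an unadjusted p under 0.05 and DESeq2 called 5. With total counts, the medians of the 8 lists in NO turned positive, at 0.0821 to 0.438, beside 0.40 over all genes. Without replicate 3 of HEK WT, 2 rose and 24 fell in NO. Over all genes, 9133 were called in that setting, against 327 with every library.

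Upstream of the complex, RRAGA, a Rag GTPase that carries amino acid signals to mTORC1, was the pathway gene that fell in both fractions, although its call in NO was lost under many settings. In NO it was at 3.43, 3.99 and 2.34 CPM in HEK WT and at 1.10, 1.08 and 1.66 CPM in HEK UL1 KO, a log2FC of -1.35 (SE 0.303, adjusted p = 0.0417, edgeR). In CN it was at 3.92, 3.54 and 4.66 CPM and at 1.23, 1.30 and 1.13 CPM, with no overlap and a log2FC of -1.72 (SE 0.137, adjusted p = 8.55e-06, edgeR). With total counts, the value in NO was -0.83 and did not pass (adjusted p = 0.729, edgeR). In NO, 0 pathway genes were called with at least 10 counts in every library, with the replicate block, or without replicate 1 or 2 of either genotype. RRAGB and RRAGC, named after their values had been seen, also fell in CN, by 0.57 and 0.59 on the log2 scale, as did PRKAA2, a catalytic subunit of AMPK, by 1.17. DEPTOR, an inhibitor within the mTOR complexes, rose from 1.61 ± 0.245 to 2.46 ± 0.205 CPM (SD, n = 3 each, log2FC 0.61), and the kinase MTOR did not pass, at -0.09. Of the 24 genes of this list, 2 rose and 7 fell in CN with TMM, and 2 rose and 2 fell with total counts. Of the 2 other ULK-like kinases, ULK4 fell from 15.7 ± 0.456 to 9.79 ± 0.321 CPM in CN (SD, n = 3 each, log2FC -0.68), and STK36 did not pass, at -0.10.

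Downstream, the class III PI3 kinase list had 1 gene that rose and 2 that fell among 8 in CN. The catalytic subunit PIK3C3 fell from 10.9 ± 0.967 to 7.14 ± 0.707 CPM (SD, n = 3 each, log2FC -0.61) and its regulatory partner PIK3R4 rose from 11.8 ± 0.585 to 13.8 ± 0.343 CPM (SD, n = 3 each, 0.22). BECN1 and ATG14 were at -0.06 and -0.08 and did not pass. Of 11 genes for ATG9, ATG2 and PI3P effectors, 0 rose and 2 fell, among them the lipid transfer protein ATG2B at -0.39. Of 11 genes of ubiquitin-like conjugation, 1 rose and 5 fell. The protease ATG4C, which processes ATG8 proteins, had the largest fall of that list, from 14.4 ± 0.205 to 5.91 ± 0.409 CPM (SD, n = 3 each, log2FC -1.28, adjusted p = 1.59e-06, edgeR), and the E2-like enzyme ATG10 rose by 0.43 on the log2 scale. Of the 7 ATG8 genes, 5 were tested in CN. GABARAPL1 rose from 0.761 ± 0.118 to 1.42 ± 0.122 CPM and GABARAPL2 fell from 4.92 ± 0.159 to 3.63 ± 0.259 CPM (SD, n = 3 each).

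The cargo receptors were evenly split, with 4 that rose and 4 that fell among 12. The ubiquitin-binding receptor NBR1 rose from 7.08 ± 0.354 to 11.7 ± 0.257 CPM (SD, n = 3 each, log2FC 0.73), and TAX1BP1, another such receptor, fell from 21.2 ± 0.446 to 13.4 ± 0.325 CPM (SD, n = 3 each, -0.66). Of the 19 genes for fusion, the lysosome and the TFEB family, 4 rose and 5 fell. The SNARE protein VAMP8 rose by 1.54 on the log2 scale from a level of 0.191 ± 0.0535 CPM (SD, n = 3), which rested on 13 to 20 counts per library, and the lysosomal membrane protein LAMP2 fell from 17.9 ± 0.800 to 8.86 ± 0.489 CPM (SD, n = 3 each, -1.02). The genes named for the largest rise or fall of a list in CN kept their direction with total counts, but PIK3C3, PIK3R4, ATG2B and GABARAPL2 then missed the threshold. In the interaction test, 0 of the 94 pathway genes differed between the fractions, with 2 at an unadjusted p under 0.05 and 0 by DESeq2. Between the fractions of HEK WT, 4 of 92 pathway genes were higher and 42 lower in NO, beside 31.9% and 20.9% of all genes tested. With total counts 1 was higher and 4 lower, and fewer of all genes were called as well.

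**Figure D3:**
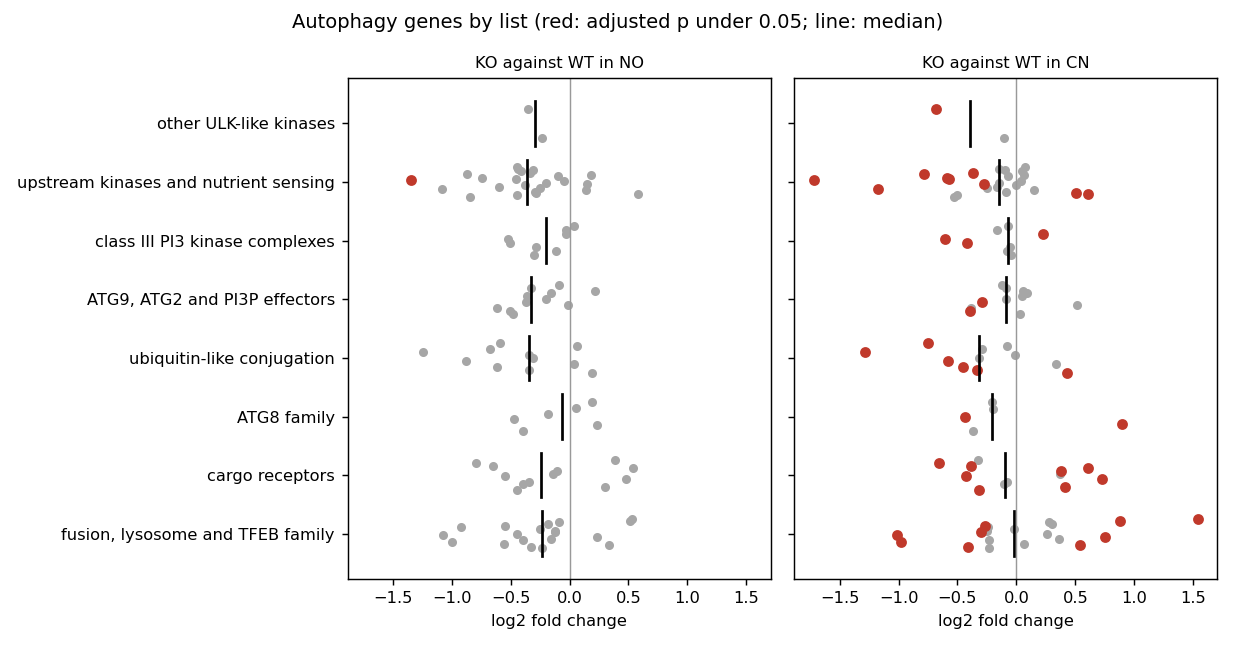
Log2 fold change of HEK UL1 KO against HEK WT for the genes of 8 autophagy lists in NO and CN, one point per gene, with red points for an adjusted p under 0.05 from edgeR's quasi-likelihood test and black lines for the median of each list. In NO 1 gene (RRAGA) is red, and in CN 40 genes are red, 13 to the right and 27 to the left of 0. With total counts, the split in CN was 14 to 8, and the calls over all genes also turned to more rises than falls.

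The extreme ULK2 value had counterparts in the surrounding part of chromosome 17. The U3 genes SNORD3B-1, SNORD3B-2, SNORD3D, SNORD3A and SNORD3C, whose snoRNA is needed for the first cuts of the rRNA precursor in the nucleolus, lie at 19061912 to 19190245, and ULK2 lies 581 kb from the nearest. For each gene, the highest NO library was divided by the lowest, and a ratio of at least 10 with at least 100 counts in a library was counted. This threshold and the window of 1 Mb were chosen after the values had been seen, so the shares are a description. Within 1 Mb of the U3 genes, 20 of 65 genes (30.8%) had such a ratio in NO, beside 5 of 1440 genes (0.347%) elsewhere on chromosome 17 and 105 of 28300 genes (0.371%) on other chromosomes. In CN, it was 2 of 53 genes (3.77%), beside 1 of 1166 genes (0.0858%) elsewhere on chromosome 17 and 119 of 22352 genes (0.532%) on other chromosomes. ULK2 had the fourth largest ratio of all genes in NO, at 386, and a ratio of 1.64 in CN.

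The high libraries were of both genotypes. Of the 20 genes, 8 were highest in replicate 1 of HEK UL1 KO and 1 in replicate 2, while 5 were highest in replicate 1 and 6 in replicate 3 of HEK WT. Replicate 2 of HEK WT and replicate 3 of HEK UL1 KO were highest for 0 of them. SLC47A2, a transporter gene on the downstream side of ULK2, had 43, 20 and 35121 counts in HEK WT and 161, 52 and 50 counts in HEK UL1 KO, so its single high library was of the other genotype. ALDH3A1, which encodes an aldehyde dehydrogenase and adjoins ULK2 on that side at -22.5 kb, was highest in the same library, with 12, 6 and 3769 counts in HEK WT and 220, 19 and 8 counts in HEK UL1 KO. The pseudogene LOC441784, which lies between ALDH3A1 and ULK2, had 0 to 6 counts. AKAP10, which encodes an anchor protein for protein kinase A and is the nearest gene on the other side of ULK2 at 36.4 kb, had 52788, 458 and 32029 counts in HEK WT and 58636, 51353 and 635 counts in HEK UL1 KO. Its high libraries were 2 of each genotype. B9D1, a gene of the ciliary transition zone, had 693, 434 and 294 counts in HEK WT and 58889, 184 and 14633 counts in HEK UL1 KO. The U3 genes themselves summed to 48629, 41785 and 33940 CPM in HEK WT and to 25341, 29714 and 18279 CPM in HEK UL1 KO. On this TMM scale, the library with the extreme ULK2 value lay within the range of the other HEK UL1 KO libraries for U3. In unscaled counts its U3 sum was above theirs, at 2811637 against 1264426 and 780427. Its total was also above theirs, at 83019079 against 39157550 and 37141666 counts. What links these values was not tested.

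**Figure D4:**
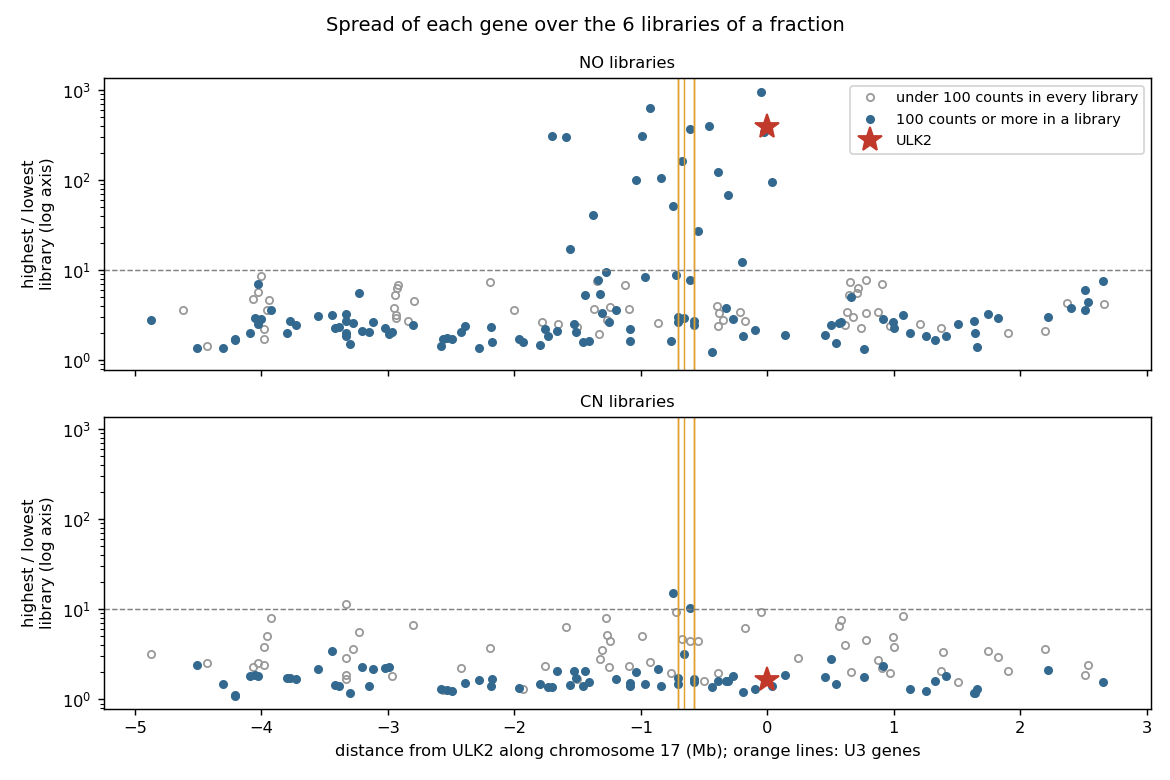
Ratio of the highest to the lowest of the 6 libraries of a fraction (log axis) for genes within 5 Mb of ULK2, against the distance from ULK2, with filled points for genes of at least 100 counts in a library, orange lines at the U3 genes and a dashed line at a ratio of 10. In NO, the 20 genes within 1 Mb of the U3 genes counted in the text lie above the line, ULK2 among them at 386, and in CN ULK2 is at 1.64.

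The genes whose log2 CPM was most like that of ULK2 over the 12 libraries, among 18065 genes with a mean of at least 50 counts, were TVP23B (Pearson's r = 0.962), LOC101929141 (0.951), TRIM16L (0.874), FBXW10 (0.801) and ADHFE1 (0.762). These correlations describe the libraries, which share the 1 extreme value, and the first 4 genes lie within 1 Mb of the U3 genes. TVP23B had 307, 327 and 585 counts in NO of HEK WT and 7273, 659 and 510 counts in HEK UL1 KO, and LOC101929141 had 24, 19 and 127 counts and 41474, 61 and 57 counts. Both were thus highest in the same library as ULK2. Over the 11 other libraries, the genes most like ULK2 were APBB2 (0.984), GCOM1 (0.984), TMEM178B (0.983), CYP4V2 (0.980) and MALAT1 (0.979), and none of the first 5 was among them.

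In CN, where no such ratio was seen for ULK2, its neighbours were often higher in HEK UL1 KO as well. Of the 15 other genes tested within 500 kb, 6 rose (40.0%) and 2 fell (13.3%), beside 15.6% and 22.3% of all genes and 19.0% and 12.3% of the genes of chromosome 17. Of these 8 calls, 1 was left with all 12 libraries in one fit, and 5 genes were called without replicate 1 of HEK WT or without replicate 3 of HEK UL1 KO. The largest rise was that of SLC47A2, from 0.0881 ± 0.0529 to 0.314 ± 0.0448 CPM (SD, n = 3 each, log2FC 1.80), which rested on 3 to 26 counts per library. SPECC1, a gene of a coiled-coil protein, rose from 13.1 ± 0.411 to 22.6 ± 0.802 CPM (SD, n = 3 each, log2FC 0.79, adjusted p = 1.43e-05, edgeR). B9D1, CCDC144CP, AKAP10 and ALDH3A2 rose by 0.54, 0.55, 0.37 and 0.27 on the log2 scale. The genes that fell were LOC105371574 (-0.34) and RPS2P46 (-0.35), which overlap each other. In bins of 2 Mb, 22 of 51 genes rose and 3 fell at 18 to 20 Mb (median log2FC 0.46), and 15 of 32 rose and 1 fell at 16 to 18 Mb (0.39), whereas 3 of 38 rose and 12 fell at 8 to 10 Mb (-0.18). Rises were also common in some bins far from ULK2. At 34 to 36 Mb, 11 of 32 genes rose and 1 fell (0.58), and at 40 to 42 Mb, 12 of 31 rose and 2 fell (0.28). The shares that rose were 34.4% and 38.7% there. They were highest on the chromosome at 16 to 18 Mb (46.9%) and 18 to 20 Mb (43.1%). In NO, 2 of 64 genes (3.12%) rose and 2 fell at 18 to 20 Mb, beside 0.365% and 0.574% of all genes. The genes called there were LOC101929141 and B9D1, which rose, and LOC102724624 and GRAPL-AS1, which fell. All were among the 20 genes with a ratio of at least 10 between NO libraries, so these calls rest on single or few libraries. The median log2FC in NO was 0.56 at 16 to 18 Mb, 0.11 at 18 to 20 Mb and 0.50 at 20 to 22 Mb. The bins were chosen after the values had been seen, and no test of the region was made.

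**Figure D5:**
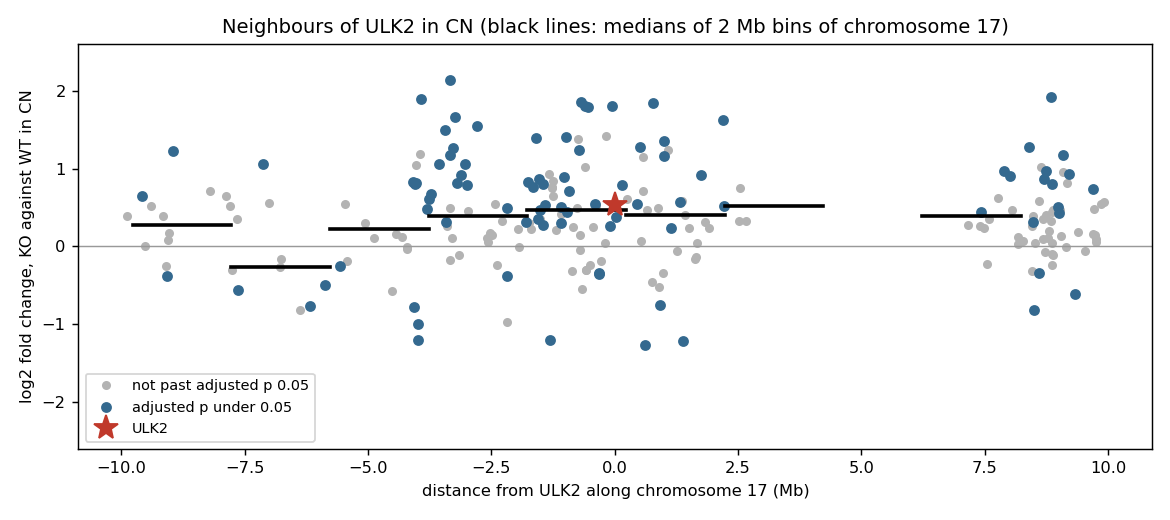
Log2 fold change of HEK UL1 KO against HEK WT in CN for genes within 10 Mb of ULK2 on chromosome 17, against the distance from ULK2, with blue points for an adjusted p under 0.05 from edgeR's quasi-likelihood test and black lines for the medians of 2 Mb bins of the chromosome. ULK2, not tested, is at 0.53, beside a median of 0.46 in its own bin.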

How the data were processed

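Nucleolar and cytoplasmic-nuclear RNA had been sequenced in 12 libraries. The values deposited by the authors are raw read counts of each gene, not normalized, with a table for each fraction. The submitters' processing notes name FastQC 0.11.4, cutadapt 3.7, STAR 2.7.8, featureCounts, DESeq2 and GRCh38; the reads had 75 bases and up to 20 alignments were allowed per read. Whether the counting used strand, and which annotation it used, is not given in the sources used here, so reads shared with overlapping or near-identical genes cannot be placed. ATG13 overlaps HARBI1 by 343 bases. With no separate cultures beyond the labelled replicates described, p-values measure the spread between these libraries.

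Genotypes were compared within each fraction with edgeR 4.0.16 (quasi-likelihood F test) in R 4.3.3 with limma 3.58.1, after TMM normalization and filterByExpr (minimum count 10, minimum total count 15). P values were adjusted by the Benjamini-Hochberg method over all genes tested and called under 0.05. The fractions were compared within HEK WT, and the interaction was tested over all 12 libraries. The procedures were tested on simulated data. DESeq2 1.42.0, other scalings and filters, a joint fit, a replicate block and leaving out each library were the alternatives. Leaving out the genes within 1 Mb of the U3 genes was added once the values were known. CPM were computed on the TMM-scaled library size, and exon lengths are unions over GENCODE release 44. Gene positions and promoters came from RefSeq (GRCh38.p14), and figures were made with Python 3.11.15, pandas 2.3.3, numpy 2.4.6 and matplotlib 3.10.9.

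The members and the pathway lists were chosen with earlier results of these data known. The genes named are the 6 members, HNRNPUL1, the called gene with the largest rise and the one with the largest fall of each pathway list in each fraction, the 5 genes most like ULK2 over the 12 libraries, and the genes that overlap or adjoin ULK2. RRAGB, RRAGC, PRKAA2, MTOR, STK36, BECN1, ATG14, INA, KRT8 and the genes named for the region around ULK2, as well as those most like it without the extreme library, were chosen after their values had been seen. Marker lists for blood, liver, endothelial and fibroblast cells summed to at most 11.2 CPM in any library.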

Additional observations from a re-analysis of the deposited data

How the results depend on the processing

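Where a value changed, the cause was not tested. In NO, the 327 genes called became 1082 with DESeq2 (259 higher, 823 lower), 10 with total counts, 1190 with no filter, 143 with at least 10 counts in every library (72 higher, 71 lower) and 1745 with all 12 libraries in one fit, and 123 to 9133 when a library was left out, the highest without replicate 3 of HEK WT and the lowest without replicate 1. The 1 pathway gene called became 5 with DESeq2, 0 with total counts or at least 10 counts, 3 with no filter, 6 in the joint fit and 0 to 26 when a library was left out, and members called ranged from 0 to 2. ULK1, ATG13 and ATG101 turned to 0.16, 0.12 and 0.43 with total counts. ATG101 was also at 0.018 with TMM without the rRNA genes, 0.10 with at least 10 counts, 0.042 in the joint fit and -0.15 to 0.11 when a library was left out. ULK2 in NO was 0.52 to 7.46 when a library was left out, its mean log2 difference by library (3.15) was 0.53 to 4.50, and its difference between the fractions was 0.11 to 7.07, each lowest without replicate 1 of HEK UL1 KO. In CN, the 10324 genes called became 5430 with total counts (3700 higher, 1730 lower) and 4215 in the joint fit, and 7286 to 10301 when a library was left out. The 1 member called became 0 and the 40 pathway genes became 22 and 14 under those settings (29 to 42 when a library was left out). Within 500 kb of ULK2, 8 genes called became 1 in the joint fit and 5 to 10 when a library was left out, and at 16 to 24 Mb 55 became 19 and 37 to 68. With total counts, ULK2 in CN was 0.72 (0.74 by library), and ULK1, ATG13 and ATG101 turned to 0.038, 0.0010 and 0.076. ULK3 in CN was -0.0054 in the joint fit and -0.053 to 0.26 when a library was left out. Between the fractions of HEK WT, the 15494 genes called became 7011 with total counts, 8759 with at least 10 counts and 24943 in the joint fit, and 12502 to 21118 when a library was left out. The 2 members other than ULK2 became 0 with total counts and 1 to 2, and the 46 pathway genes 5 and 30 to 61. ULK1, ULK3 and ATG101 turned to -0.23, -0.25 and -0.14 with DESeq2, -0.21, -0.23 and -0.13 with no filter and -0.23, -0.25 and -0.13 in the joint fit, and spanned -0.21 to 0.22, -0.29 to 0.17 and -0.066 to 0.14 when a library was left out. In the interaction, the 43 genes called became 79 with DESeq2, 0 with total counts, 104 with no filter, 20 with at least 10 counts and 25 to 57 when a library was left out. Leaving out the genes within 1 Mb of the U3 genes changed no call among the 5 members other than ULK2.

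Same-numbered samples did not deviate together, so the numbers were not taken to pair the samples. The mean correlation was -0.244 between the genotypes in NO and -0.141 in CN. Between NO and CN it was -0.299 in HEK WT and -0.122 in HEK UL1 KO. With the replicate block, ULK2 was 2.11 in NO and 4.95 for the difference between the fractions, 0 pathway genes were called in NO, and between the fractions of HEK WT 9577 genes, 1 member and 25 pathway genes were called. Depth limits ATG101 most, at 20 to 67 counts per library.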
